A study of Mus musculus with 4 samples.

Results

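Transcripts of postsynaptic scaffold proteins, synaptic adhesion molecules and calcium-dependent kinases or regulators of the synapse were compared between mice under repeated social threat (environment HighThreat in the labels) and control mice (LowThreat), in prefrontal cortex. The list held 37 genes. Of these, 35 were measured, out of 18193 genes with a probe set annotated to a single gene symbol, and each gene was read by its brightest probe set, that with the highest mean over the arrays. Shank2 and Ppp1r9b had no such probe set and were not analysed here. The 35 genes comprised 16 scaffolds or adaptors, 12 adhesion molecules and 7 kinases or regulators. Each group was represented by 2 Affymetrix MOE430 2.0 arrays, each hybridised with total RNA pooled from 5 mice. The strain, age and sex of the mice and the procedure and length of the threat were not given in the sources used here. Nothing in the labels ties the pools to cages or days, and p-values measure only the spread between pools, which is not the spread between animals. Values are log2 expression values, and a log2 difference is always the mean of the threat pools minus the mean of the control pools.

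At an excitatory synapse, receptors are held opposite the release site by the postsynaptic density, a protein mesh on the inner face of the dendritic spine membrane. Membrane-associated guanylate kinases of the Dlg family bind receptor tails, Dlgap proteins link them to Shank proteins, and Shank and Homer connect this layer to metabotropic receptors and actin. Across the cleft, presynaptic neurexins bind neuroligins and Lrrtm proteins, and Slitrk proteins bind presynaptic receptor tyrosine phosphatases. Calcium entering the spine acts through calmodulin on the kinase CaMKII, which is abundant in the excitatory neurons of cortex.

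None of the 35 genes passed the test between threat and control across all probe sets. The largest difference was that of Camk2d, a CaMKII subunit, which was 1.42-fold lower in threat (log2 difference -0.51 ± 0.22, SE, n = 2 pools each), with an adjusted p of 0.49. Next came Slitrk3 at 0.31 and Slitrk5 at 0.28, Shank1 at -0.28, Baiap2 at 0.27 and Lrrtm4 at -0.26. The adjusted p of the 35 genes lay between 0.45 and 0.99 in limma's test with Benjamini-Hochberg adjustment over 45037 probe sets, and 0% of all genes were called at an adjusted p under 0.05. At an unadjusted p under 0.05 there were 2 genes higher in threat, Slitrk5 and Baiap2, and 2 lower, Shank1 and Lrrtm4. These 4 are 11.4% of the 35 genes, against 10.7% of all genes (4.9% higher and 5.76% lower). An exact permutation test of 2 pools against 2 cannot give a two-sided p below 0.33 and was not used.

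As a description of the pools that needs no estimate of variance, a gene was called separate when both threat pools lay above, or both below, both control pools. Of the 35 genes, 10 (28.6%) were separate and higher in threat, 8 (22.9%) were separate and lower, and the pools of 17 overlapped. Among all genes, 26.2% were separate and higher and 18.8% separate and lower. Among the 11931 genes whose mean exceeded the median of all probe sets, as did 33 of the 35, the shares were 33.1% and 15.5%. The share of members that were higher lies between these backgrounds, and the share that were lower is above both. The 8 lower genes include Dlg2 at -0.034 and Grip1 at -0.062. Their count was 5 with each array centred on its median, a setting for which the share of all genes is not given here. Counting only separate genes with a log2 difference of at least 0.2 left 4 higher (11.4%) and 3 lower (8.57%), against 10.8% and 10.3% of all genes. No brightest probe set of the 35 reached 1.5-fold, and 0.781% of all genes were separate at that size. The median log2 difference of the 35 genes was 0.038, beside 0.024 for all genes and 0.058 for the genes above the median signal. With 1 pool left out fewer values have to lie apart, so counts over 3 pools are read against the same 3 pools of all genes. Leaving out control pool 2 put 20 of the 35 (57.1%) separate and higher, against 38.4% of all genes, and 10 (28.6%) separate and lower, against 34.8%. Leaving out control pool 1 turned this around, with 12 (34.3%) higher against 44.3% and 17 (48.6%) lower against 30.2%. Leaving out threat pool 1 gave 11 (31.4%) higher against 36.7% and 12 (34.3%) lower against 32.5%, and leaving out threat pool 2 gave 15 (42.9%) higher against 42.9% and 9 (25.7%) lower against 29.5%. The members thus stood above the share of all genes in one direction or the other according to which control pool was kept.

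**Figure D1:**
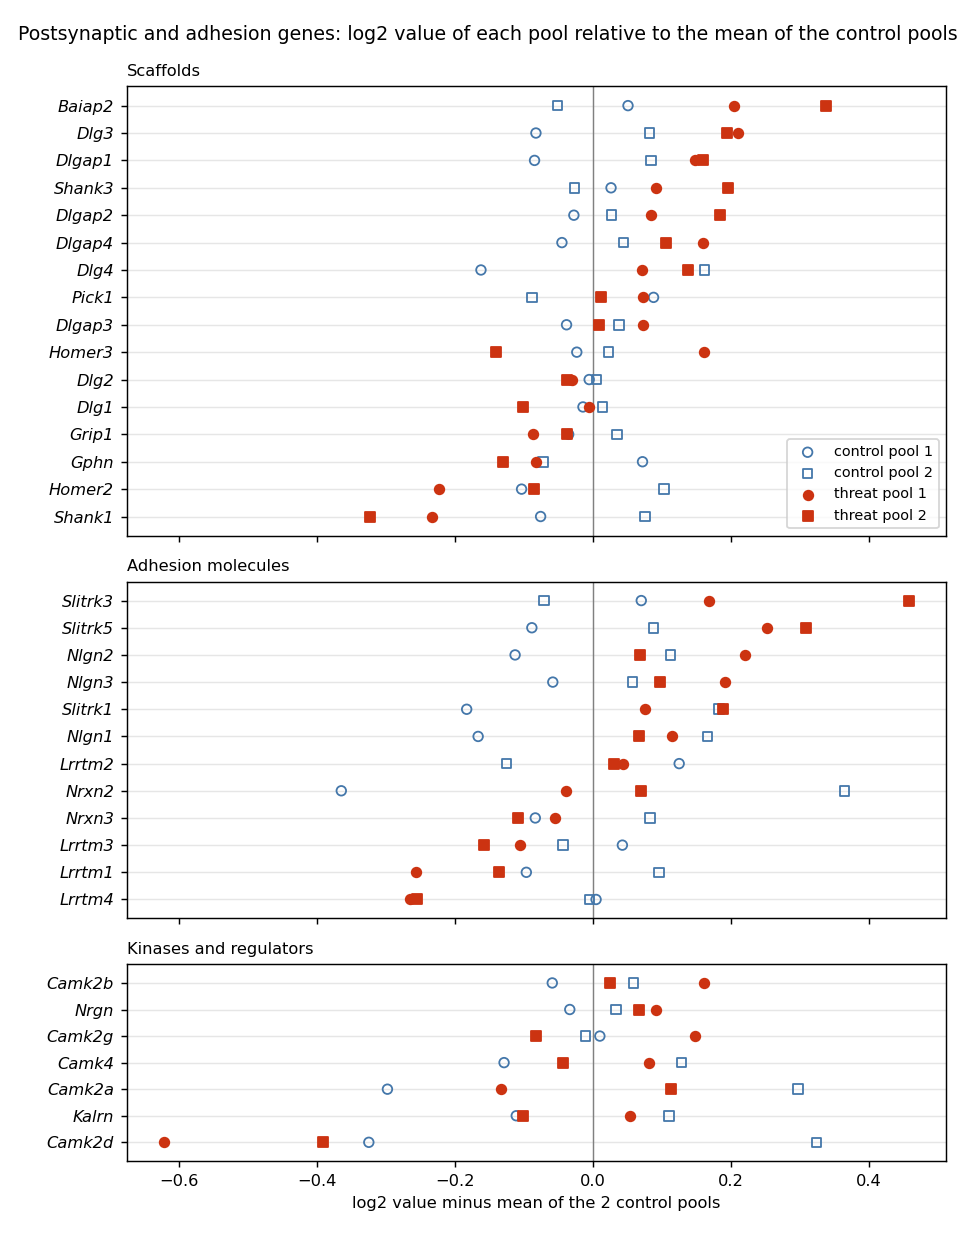
Log2 value of each of the 4 pools for the 35 genes, relative to the mean of the 2 control pools (x axis), by role; open blue symbols are control pools and filled red symbols threat pools, with circles for pool 1 and squares for pool 2. Nrxn2, Camk2a and Camk2d have wide gaps between their control pools, while both pools of Lrrtm4 lie together in each group.

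Gaps between the pools of a group were of the same order as the differences between the groups. The median gap between the 2 control pools was 0.15 on the log2 scale over the 35 genes, and that between the 2 threat pools 0.095. The median absolute difference between the groups was 0.11. A gap is between single pools and a group difference between means of 2 pools, which vary less, so the sizes are not directly comparable. Control pool 1 was the lower control pool in 26 of the 35 genes, against 44.0% of all genes, whereas threat pool 1 was the lower threat pool in 15. The group difference exceeded both gaps in 14 genes (40.0%), against 32.6% of all genes. The widest gap was that of Nrxn2, a presynaptic neurexin, with 9.75 and 10.48 in control pools 1 and 2.

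Among the scaffolds, 6 genes (37.5%) were separate and higher in threat, 4 (25%) separate and lower, and 6 overlapped, with a median log2 difference of 0.041. The shares separate and higher and separate and lower were 26.2% and 18.8% of all genes. They were 33.1% and 15.5% of the genes above the median signal. The scaffold median was -0.0050 without control pool 1, 0.0098 without threat pool 1 and 0.073 without threat pool 2. Without control pool 1, 7 of the 16 scaffolds were separate and lower, against 30.2% of all genes. Baiap2, an adaptor that binds Shank and Dlg4, measured 10.31 and 10.21 in control against 10.46 and 10.59 in threat. Its threat pools were both the higher, by 0.27 ± 0.10 (SE; 95% interval 0.019 to 0.52, not adjusted for the number of genes; adjusted p = 0.46). All 4 probe sets of Baiap2 had positive differences, between 0.053 and 0.27, and the pools of 3 were separate.

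The Dlg proteins are the central scaffold layer. Dlg3, known as SAP102, measured 9.92 and 10.09 in control against 10.22 and 10.20 in threat. The threat pools nearly coincided and both lay above the control pools, by 0.20 ± 0.10 (SE; adjusted p = 0.51). Dlg4, which encodes PSD-95, measured 10.73 and 11.05 in control against 10.96 and 11.03 in threat. Both threat values lay between the control values, and the 95% interval of the difference ran from -0.23 to 0.44. Dlg1 (SAP97) differed by -0.053 and overlapped. Dlg2 (PSD-93) differed by -0.034, yet its pools were separate, because the gaps between the pools were only 0.0105 in control and 0.0084 in threat. Separate pools therefore do not imply a large difference.

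The Dlgap proteins bridge Dlg and Shank. By the brightest probe set, the differences of all 4 genes were positive, from 0.041 (Dlgap3) to 0.15 (Dlgap1), and 3 were separate; with cyclic loess scaling Dlgap3 was at -0.011, while the other 3 stayed positive under both other scalings. Dlgap1 measured 11.13 and 11.30 in control against 11.36 and 11.37 in threat. Its 2 threat pools lay just above the higher control pool (difference 0.15 ± 0.10, SE; adjusted p = 0.59). Dlgap2 measured 8.10 and 8.15 in control against 8.21 and 8.31 in threat. Here too the threat pools were both higher, by 0.13 ± 0.094 (SE; adjusted p = 0.61). Dlgap4 was separate at 0.13, and its second probe set was separate at 0.20.

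Shank and Homer proteins form the deeper layer. Shank3 measured 9.88 and 9.83 in control against 9.95 and 10.05 in threat. Both threat pools were higher, by 0.14 ± 0.094 (SE; adjusted p = 0.59). Shank1 went the other way, with 5.16 and 5.31 in control against 5.00 and 4.91 in threat, a difference of -0.28 ± 0.10 (SE; adjusted p = 0.46). Its mean of 5.10 is below the median probe set at 5.56, though all 4 pools were above 4.25, the highest value of 27 controls for Bacillus transcripts, used here as a guide to background. Homer2 differed by -0.15 and Homer3 by 0.0105, and both overlapped. Homer3 was the only other of the 35 genes with a mean below the median probe set.

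The remaining scaffolds serve inhibitory synapses or receptor traffic. Gphn, which encodes gephyrin, the anchor of inhibitory receptors, was separate and lower at -0.11. The AMPA receptor adaptors Grip1 and Pick1 were at -0.062 (separate) and 0.042 (overlapping). None of the 3 exceeded the gap between its control pools.

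**Figure D2:**
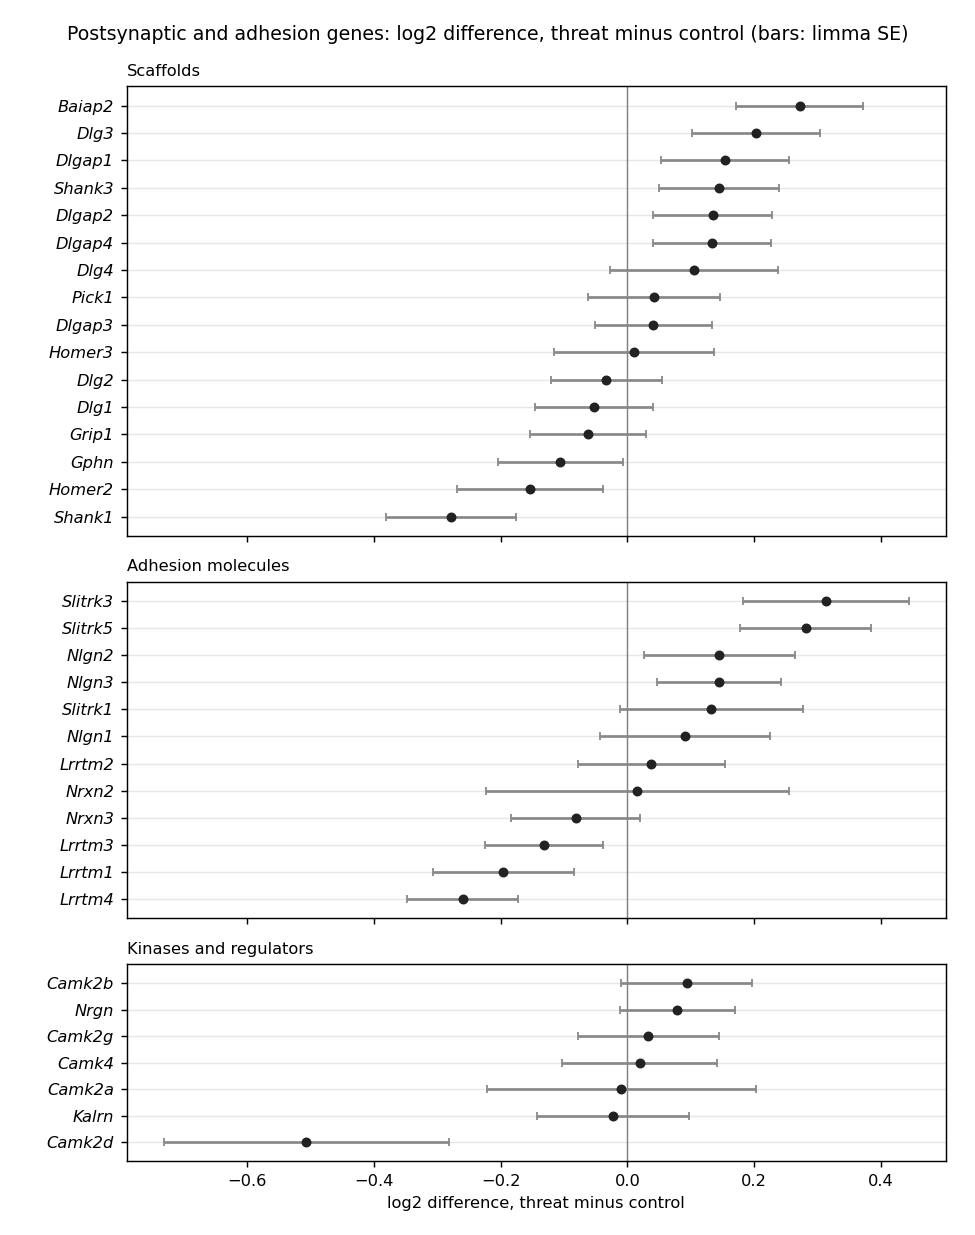
Log2 difference, threat minus control (x axis), of the brightest probe set of each of the 35 genes by role, with limma's standard error as bars (n = 2 pools each). Differences run from -0.51 (Camk2d) to 0.31 (Slitrk3), and the widest bars are those of Nrxn2, Camk2a and Camk2d.

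Of the 12 adhesion molecules, 3 (25%) were separate and higher in threat, 3 (25%) separate and lower, and 6 overlapped, with a median of 0.064. Of all genes, 26.2% were separate and higher and 18.8% separate and lower. Both Slitrk genes with separate pools were higher in threat, and the 3 Lrrtm genes with separate pools were lower. The median of the list was -0.063 without control pool 1, where 6 genes were separate and lower, against 30.2% of all genes. It was 0.22 without control pool 2, where 7 were separate and higher, against 38.4% of all genes.

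Slitrk3, which promotes inhibitory synapses, measured 7.19 and 7.05 in control against 7.29 and 7.58 in threat. Both threat pools were higher and threat pool 2 stood farthest out, for a difference of 0.31 ± 0.13 (SE; adjusted p = 0.48) that came to 0.17 without threat pool 2. Slitrk5 measured 9.04 and 9.22 in control against 9.38 and 9.44 in threat. Its groups lay farther apart than the pools within either group (0.28 ± 0.10, SE; adjusted p = 0.46). Slitrk1 was at 0.13 and overlapped. Each of these 3 genes had a single probe set, and all 3 were positive under both other scalings. The related Slitrk2 and Slitrk4, which were not on the list of 37, overlapped at -0.078 and -0.0975.

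The Lrrtm proteins, leucine-rich repeat partners of neurexins at excitatory synapses, gave 3 negative differences by the brightest probe set. Lrrtm4 measured 7.91 and 7.90 in control against 7.64 and 7.65 in threat. The pools of each group were 0.0096 apart, and this gene had the lowest p of the 35 (difference -0.26 ± 0.088, SE; adjusted p = 0.45). Its second probe set was also separate and lower, at -0.29. Lrrtm1 measured 10.28 and 10.47 in control against 10.12 and 10.24 in threat. The higher threat pool was just below the lower control pool (-0.20 ± 0.11, SE; adjusted p = 0.55), and both other probe sets of Lrrtm1 were positive, at 0.18 and 0.15. Lrrtm3 measured 9.14 and 9.06 in control against 8.99 and 8.94 in threat. This probe set was separate at -0.13 ± 0.093 (SE; adjusted p = 0.61), whereas its 3 other probe sets were positive, between 0.12 and 0.21, and 2 of them separate and higher in threat. Lrrtm2 overlapped at 0.038. Of the Lrrtm genes, Lrrtm4 alone was therefore lower by every probe set.

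Neuroligins are the postsynaptic partners of neurexins, with Nlgn1 at excitatory, Nlgn2 at inhibitory and Nlgn3 at both kinds of synapse. Nlgn3 measured 8.60 and 8.72 in control against 8.85 and 8.76 in threat. Both threat pools were higher, by 0.14 ± 0.098 (SE; adjusted p = 0.60). All 3 probe sets of Nlgn3 were separate and higher in threat, with differences of 0.14, 0.20 and 0.38. Nlgn1 at 0.0905 and Nlgn2 at 0.15 overlapped, and the second probe set of Nlgn2 was separate and lower, at -0.31. The neurexins on the list, Nrxn2 at 0.016 and Nrxn3 at -0.082, overlapped, and the 95% interval of Nrxn2 ran from -0.58 to 0.61, which leaves room for a difference of that size in either direction.

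Of the 7 kinases and regulators, 1 (14.3%) was separate and higher in threat, 1 (14.3%) separate and lower, and 5 overlapped, with a median of 0.019. Of all genes, 26.2% were separate and higher and 18.8% separate and lower with all pools kept. Leaving out control pool 2 gave a median of 0.11 with 5 separate and higher, and leaving out threat pool 2 gave 0.082 with 3. Of all genes, 38.4% and 42.9% were separate and higher in these 2 settings. Leaving out control pool 1 gave -0.11 with 4 separate and lower, and leaving out threat pool 1 gave -0.044 with 2. Here 30.2% and 32.5% of all genes were separate and lower. Camk2d measured 8.88 and 9.53 in control against 8.59 and 8.82 in threat. Both threat pools were lower, but the gap between the control pools (0.65) was wider than the difference of -0.51, which was -0.18 with control pool 2 left out and -0.83 with control pool 1 left out. The 2 other Camk2d probe sets above the median signal were at 0.22 and 0.034 and overlapped. In bulk tissue, fewer cells of a type and less RNA per cell cannot be told apart. The summed markers of vascular cells stood in the same order of pools as this Camk2d probe set. Their summed linear level over 10 of 10 genes was 3920 and 6040 in control and 2771 and 3146 in threat, pools 1 and 2. All 10 differences were negative, and none of the genes was at the level of the Bacillus controls in all pools. Taken singly, Cldn5, Pecam1, Pdgfrb, Vwf, Tagln and Acta2 had this order of pools, and Cdh5, Rgs5, Flt1 and Col1a1 did not. The summed astrocyte markers (10 of 10 genes, 7 of them with negative differences) had the same order of pools, with 28175 and 28396 against 23827 and 26841. Their control sums were nearly equal, unlike the control pools of Camk2d. Of the single astrocyte genes, only Slc1a2, Gja1 and Gfap had this order. The summed microglia markers (9831 and 9019 against 7966 and 8896) and myelin markers (25384 and 20031 against 11392 and 13845) had another order. Both were highest in control pool 1. The part of these cells in the Camk2d difference was not tested.

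Camk2a, the alpha subunit and the most characteristic kinase of cortical excitatory neurons, measured 12.51 and 13.11 in control against 12.68 and 12.92 in threat. Both threat pools lay between the control pools, with a difference of -0.00985 and a 95% interval from -0.54 to 0.52. Camk2b measured 10.78 and 10.89 in control against 11.00 and 10.86 in threat, which overlapped (0.093 ± 0.10, SE; adjusted p = 0.75). Camk2g measured 10.62 and 10.60 in control against 10.76 and 10.53 in threat, and the threat pools enclosed the control pools (0.033 ± 0.11, SE; adjusted p = 0.93). Nrgn, which encodes neurogranin, a postsynaptic protein that holds calmodulin, measured 12.27 and 12.34 in control against 12.40 and 12.37 in threat. Its threat pools were both slightly higher, by 0.079 ± 0.090 (SE; adjusted p = 0.76). Camk4, a nuclear calmodulin-dependent kinase, overlapped at 0.019, as did Kalrn, a regulator of dendritic spines, at -0.023.

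Probe sets of 1 gene often disagreed. The 35 genes had 96 probe sets, of which 28 (29.2%) were separate and higher in threat and 18 (18.8%) separate and lower, against 23.9% and 19.4% of all probe sets. By limma, 0 of the 96 and 0% of all probe sets passed an adjusted p of 0.05. At an unadjusted p under 0.05 there were 5 higher and 7 lower, against 4.87% and 5.73% of all probe sets. Without control pool 2, 50 probe sets (52.1%, against 37.2% of all probe sets) were separate and higher and 24 (25%, against 35.2%) separate and lower. Without threat pool 1 these were 46 (47.9%, against 37.4%) and 24 (25%, against 33.2%). Without control pool 1 they were 38 (39.6%, against 40.4%) and 34 (35.4%, against 31.1%). Without threat pool 2 they were 38 (39.6%, against 39.2%) and 30 (31.2%, against 32.1%). Of the 49 probe sets above the median signal that were not the brightest of their gene, 24 had the sign of the brightest one. Among the 24 genes with more than 1 probe set, 16 had differences of both signs and 6 had probe sets separate in opposite directions: Camk2d, Dlgap1, Grip1, Lrrtm1, Lrrtm3 and Nrxn3. Of the 96 probe sets, 7 were at or below the highest Bacillus control in all pools, 2 of them separate and higher and 1 separate and lower. The only higher probe set of Camk2d is one of these, and without them 5 genes had probe sets separate in opposite directions.

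The widest range within a gene was that of Dlgap1, with differences from -0.58 to 0.24 over 6 probe sets. This and the next probe sets were singled out after their values were seen. Probe set 1436076_at of Dlgap1 measured 10.65 and 10.65 in control against 10.12 and 10.02 in threat. Each group was tight and the threat pools were 1.49-fold lower (-0.58 ± 0.092, SE; adjusted p = 0.40). A dimmer probe set, 1438098_at, went the same way, with 7.40 and 7.48 against 6.92 and 7.09 (-0.44 ± 0.10, SE; adjusted p = 0.43). The brightest probe set and 2 further ones were separate and higher in threat, of which 1, at 3.62 and 3.64 against 3.80 and 3.82, was below the highest Bacillus control in all pools. The direction reported for Dlgap1 thus depends on the probe set, and the position of these probe sets in the transcripts was not analysed here.

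Grip1 and Kalrn also held a probe set far from the brightest one. Probe set 1421350_a_at of Grip1 measured 6.78 and 6.81 in control against 7.34 and 7.32 in threat, a difference of 0.54 ± 0.088 (SE; adjusted p = 0.40). Its pools were as tight as those of the brightest probe set, which was at -0.062. Probe set 1442554_s_at of Kalrn measured 7.22 and 7.21 in control against 7.62 and 8.08 in threat, a difference of 0.64 ± 0.16 (SE; adjusted p = 0.43). It was the only one of the 96 past 1.5-fold, at 1.55-fold, a size at which 0.83% of all probe sets were separate, and the suffix _s_at marks a probe set whose probes can match more than 1 transcript. The difference was 0.40 without threat pool 2 and 0.87 without threat pool 1.

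**Figure D3:**
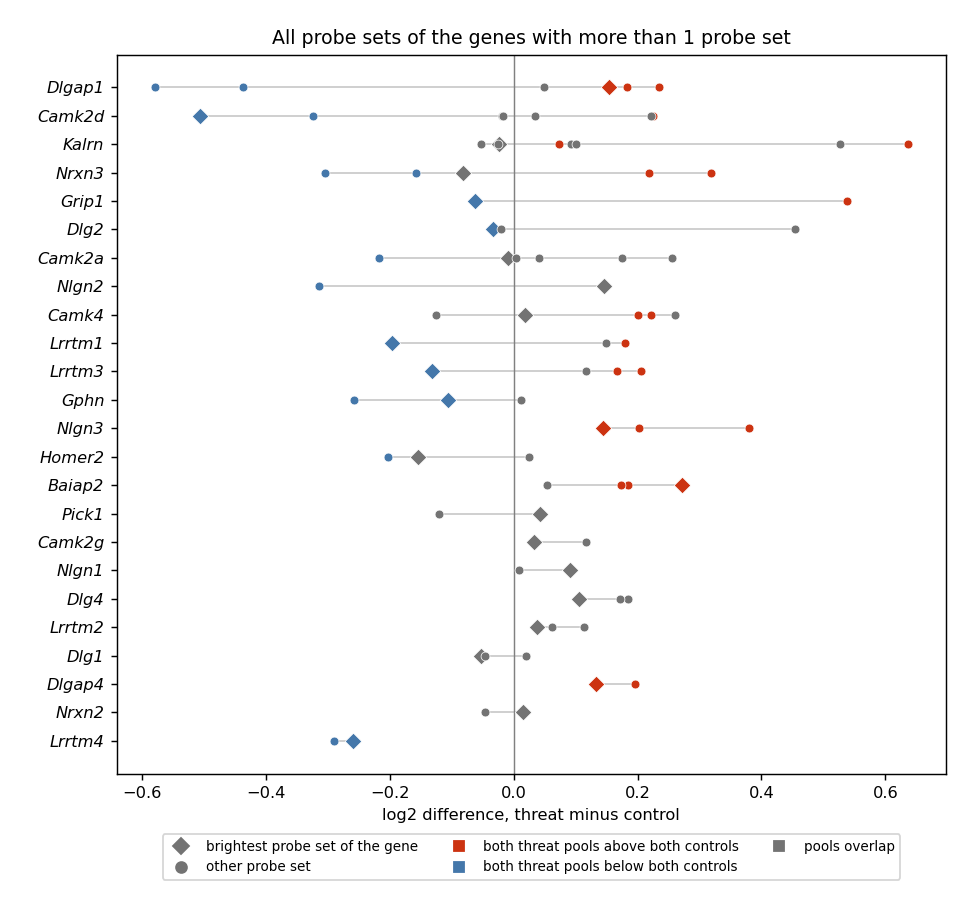
Log2 difference, threat minus control (x axis), of every probe set of the 24 genes with more than 1, ordered by the range within the gene; diamonds are the brightest probe set, circles the others, and colour marks whether the pools were separate. Dlgap1, Camk2d and Kalrn have the widest ranges, while the probe sets of Baiap2, Nlgn3 and Lrrtm4 lie on 1 side of 0.

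Other genes of the same protein classes were examined from a further list of 87 genes, of which 73 were measured. This list too was chosen with earlier results of these data known. By limma, 0 of the 73 passed an adjusted p of 0.05, and 8 were higher and 4 lower at an unadjusted p under 0.05 (16.4%, against 10.7% of all genes). Other scaffolds had a median difference of 0.0205 over 21 genes, with 4 separate and higher and 5 separate and lower, and other kinases and regulators had a median of 0.029 over 19 genes, with 5 and 2. Without control pool 1, control pool 2, threat pool 1 and threat pool 2 in turn, 4, 11, 9 and 6 other scaffolds were separate and higher and 9, 6, 7 and 8 separate and lower, and of the other kinases and regulators 9, 8, 6 and 8 were separate and higher and 6, 6, 5 and 4 separate and lower. In the same order, 44.3%, 38.4%, 36.7% and 42.9% of all genes were separate and higher, and 30.2%, 34.8%, 32.5% and 29.5% separate and lower. The medians, again in that order, were -0.020, 0.067, 0.035 and 0.018 for other scaffolds. For other kinases and regulators they were 0.031, 0.013, -0.019 and 0.037. The other adhesion molecules had a median of 0.18 over 33 genes. Of these, 17 (51.5%) were separate and higher in threat and 1 (3.03%) separate and lower. These shares were 26.2% and 18.8% of all genes, and 33.1% and 15.5% of the genes above the median signal. With 1 pool left out, only the shares of all genes are given. Leaving out control pool 1 or 2 gave medians of 0.040 and 0.23. There 8 and 2 genes were separate and lower in threat, against 30.2% and 34.8% of all genes. Without control pool 2, 27 were separate and higher in threat, against 38.4% of all genes. Over the settings with 1 pool left out, this count ranged from 19 to 27. Without threat pool 1 the count separate and lower in threat was 3, and without threat pool 2 it was 2.

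The adhesion genes of this further list with the largest positive differences were the secreted neurexin ligand Cbln1 at 0.37 ± 0.15 (SE; 7.93 and 7.55 against 8.17 and 8.04), the latrophilin Adgrl3 at 0.35 ± 0.14 and Lrfn3 at 0.33 ± 0.12. The Lrfn proteins are leucine-rich repeat adhesion molecules of the synapse, and all 5 Lrfn genes were separate and higher in threat, from 0.21 (Lrfn2) to 0.33 (Lrfn3). The 5 were picked out after their values were seen. The single separate gene with lower values in threat was Cdh2, the neural cadherin of synaptic junctions, at -0.35 ± 0.11. Their adjusted p was 0.45 or above. Among the other scaffolds, Cnksr2 was at -0.45, Agap2 at -0.30, Mpp2 at 0.30 and Grip2 at -0.23. Among the other kinases and regulators, Prkaca, the catalytic subunit of protein kinase A, was at -0.36, and Trio, which is related to Kalrn, was at 0.28, Camk1d at 0.26 and Rasgrf1 at 0.19. When probe sets ending in _x_at or _s_at were left out, Prkaca was at 0.20 and Rasgrf1 at 0.0064. Cnksr2 came to -0.23 without control pool 2 and Cbln1 to 0.18 without control pool 1.

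**Figure D4:**
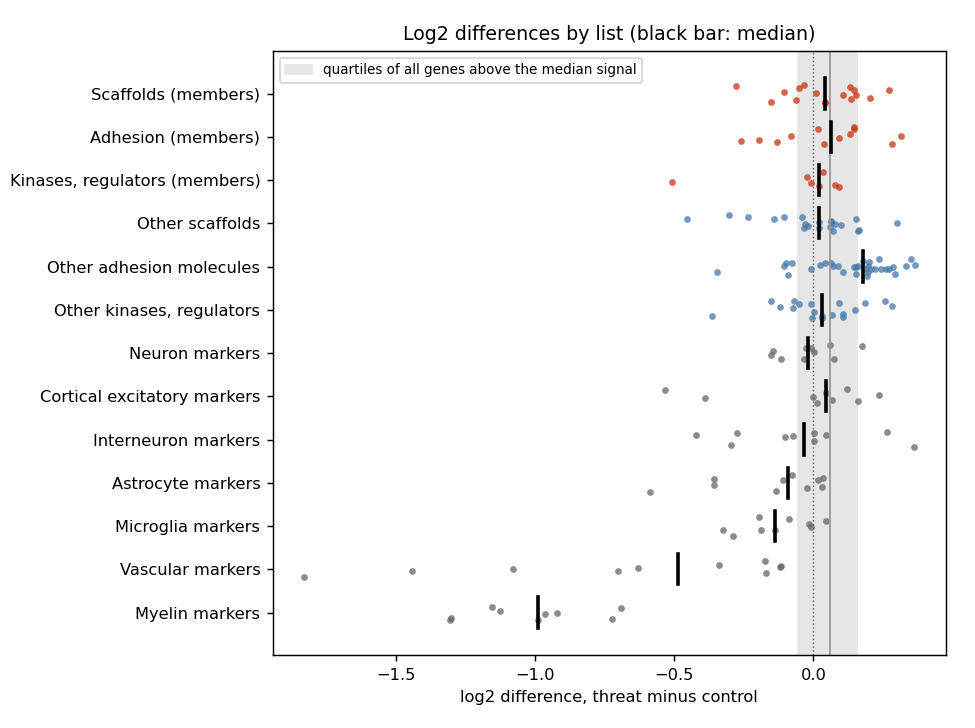
Log2 difference, threat minus control (x axis), of each gene by list, with the list median as a black bar; the grey band and line are the quartiles and median of the 11931 genes above the median signal. The lists of members lie around the band, the other adhesion molecules have a median of 0.18, and the vascular and myelin markers lie lower.

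Cell type markers placed these differences beside those of the tissue. The arrays correlated across probe sets at 0.994 to 0.996. Neuron markers had a median difference of -0.019 over 10 genes, with a summed linear level of 55447 and 56677 in control against 55797 and 55798 in threat. Cortical excitatory markers had a median of 0.045 over 9 genes, with 8142 and 8221 against 8418 and 7950. The separate genes among them were Tbr1 (-0.53) and Neurod6 (-0.39), lower in threat, and Slc17a7 (0.23), higher. Striatal markers summed to 4004 and 2812 in control against 3222 and 2836 in threat. Interneuron markers had a median of -0.036 over 10 genes. Here the separate genes were Gad1 (-0.42) and Gad2 (-0.275), lower in threat, and Lhx6 (0.26), higher. The adjusted p (limma) of every cortical excitatory and interneuron marker was 0.41 or above. The myelin markers were lower in threat in all 9 measured genes, with a median of -0.99 and summed levels of 25384 and 20031 against 11392 and 13845. Microglia markers summed to 9831 and 9019 against 7966 and 8896. No measured marker of these lists was at or below the Bacillus level in all pools. The part of these cell types in the values of the scaffold, adhesion and kinase genes was not tested.

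The bases before the transcription start were looked up in RefSeq (GRCm38.p6) for the members, of which 28 of 37 were matched, at the first start that the table lists for each gene. The 250 bases upstream had a median GC content of 58.0%, against 52.0% for all 27025 genes of that table, and a median of 9 CpG dinucleotides against 6. The GC box GGGCGG, on either strand, was present in 12 (42.9%) against 32.9% of all genes, and the TATA element TATAAA in 2 (7.14%) against 13% of all genes. The cyclic AMP response element TGACGTCA was in none against 1.62%, and its core TGACG, which lies within it, was in 1 (3.57%), Dlg3, against 17.9%. A match is a description of letters, and no binding was measured. The 3 sequences that follow belong to the gene of each role with the largest difference and separate pools among those in the table, namely Baiap2, Slitrk3 and Camk2d, and capitals mark the GC box and the TATA element on either strand.
Baiap2, chr11:119942842-119943091, plus strand: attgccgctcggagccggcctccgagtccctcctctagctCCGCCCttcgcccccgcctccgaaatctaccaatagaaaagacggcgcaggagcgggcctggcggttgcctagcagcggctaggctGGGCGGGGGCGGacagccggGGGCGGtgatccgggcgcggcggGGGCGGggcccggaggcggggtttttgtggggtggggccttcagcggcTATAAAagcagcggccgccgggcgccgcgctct
Slitrk3, chr3:73057067-73057316, minus strand: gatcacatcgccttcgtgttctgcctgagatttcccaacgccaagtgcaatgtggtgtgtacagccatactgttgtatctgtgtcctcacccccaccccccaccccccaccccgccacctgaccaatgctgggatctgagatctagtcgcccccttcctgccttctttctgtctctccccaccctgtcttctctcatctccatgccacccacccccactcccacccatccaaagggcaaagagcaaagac
Camk2d, chr3:126596701-126596950, plus strand: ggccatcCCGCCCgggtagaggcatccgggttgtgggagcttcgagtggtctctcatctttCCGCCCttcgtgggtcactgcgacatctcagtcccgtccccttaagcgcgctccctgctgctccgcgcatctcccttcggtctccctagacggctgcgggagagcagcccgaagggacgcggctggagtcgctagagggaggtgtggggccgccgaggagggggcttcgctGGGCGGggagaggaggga
Baiap2, among the higher genes, has GC boxes and a TATA element, Camk2d, the gene with the largest lower value, has GC boxes only, and Slitrk3 has none of the motifs searched in this window.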

How the data were processed

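Per the labels, prefrontal cortex RNA pooled from 5 mice was hybridised to each of 4 Affymetrix MOE430 2.0 arrays, 2 pools of control and 2 of threat mice. The authors deposited log2 expression values per probe set, and the submitters' processing notes name RMA; for its version, settings and chip definition nothing is given in the sources used here. Quantile-type scaling, usual in RMA, would hide a shift of most transcripts. Detection calls were not used.

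Of 45101 probe sets, 64 controls were left out, leaving 45037: 34945 with 1 gene symbol in the platform annotation, 932 with several and 9160 unnamed here. Threat was compared with control with lmFit and eBayes of limma 3.58.1 (R 4.3.3; no intensity trend, two-sided, Benjamini-Hochberg adjustment over all 45037), with 2 residual degrees of freedom before moderation. The code was tested on simulated data. The number of arrays limits the precision; the median standard error of a difference was 0.108. The 95% intervals are limma's, for each gene alone. Promoter letters came from RefSeq.

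Members and lists were chosen with earlier results of these data known. Pool values are given, per role, for the up to 6 members with the largest difference among those with separate pools, filled to 4 by size; up to 4 per further list are named by the same rule; genes outside it (Camk2a, Dlg4, the Slitrk and Lrfn relatives, probe sets other than the brightest) were chosen after their values were seen. Alternatives were 2 scalings, an intensity trend, filters on signal and probe set class, the mean over probe sets, size thresholds, the pool number as a block, and each pool left out.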

Additional observations from a re-analysis of the deposited data

How the results depend on the processing

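Under every alternative run, no member gene passed an adjusted p of 0.05; over all settings, genes and the 4 extra probe sets, the lowest adjusted p was 0.18 (Dlgap1 probe set 1436076_at with an intensity trend). With the pool number as a replicate block, 0 members were called. Same-numbered pools deviated together (r = 0.33 over all probe sets), but 2 pairs that share a number are not known to be paired. The intensity trend changed no call. The filter on signal dropped Shank1 and Homer3, which left 3 scaffolds separate and lower and a scaffold median of 0.074, and it changed no other call. The block, the trend and this filter leave the difference of each remaining gene as it is. Directions therefore could not change in these settings. With each array centred on its median, which moved the median of all probe sets from 0.015 to 0.051, 5 members were separate and lower in threat (1 scaffold; 3 of the other scaffolds), the medians were 0.077 for scaffolds, 0.10 for adhesion and 0.055 for kinases and regulators, and Dlg2 (0.0021), Camk2a (0.026) and Kalrn (0.013) turned. With cyclic loess the adhesion median was 0.0044, the scaffold median 0.013, the kinase and regulator median -0.0013, the other scaffold median -0.0041, 2 other scaffolds were separate and higher and 3 other adhesion genes separate and lower, and Dlgap3 (-0.011), Nrxn2 (-0.030), Lrrtm2 (-0.021), Camk2a (0.014), Camk2g (-0.0013), Camk4 (-0.021) and Pick1 (-0.032) turned. Without _x_at and _s_at probe sets, Prkaca was at 0.20, Rasgrf1 was at 0.0064 and 1 other kinase or regulator was separate and lower. With the mean over a gene's probe sets, 5 members were separate and lower (1 adhesion, 0 kinases or regulators), 2 kinases or regulators were separate and higher, as were 8 other scaffolds, 0 other adhesion genes and 1 other kinase or regulator were separate and lower, and the medians were 0.087 for scaffolds and 0.079 for kinases and regulators; Dlg2 (0.13), Dlgap1 (-0.066), Nlgn2 (-0.084), Nrxn2 (-0.015), Lrrtm1 (0.044), Lrrtm3 (0.089), Camk2a (0.041), Kalrn (0.17), Grip1 (0.24) and Pick1 (-0.039) turned. Requiring a log2 difference of at least 0.2 as well as separate pools left 4 members higher and 3 lower, and requiring 1.5-fold left 0 and 0. For the 2 scalings, the filter on probe set class and the mean over probe sets, the share of all genes under the same setting is not given. Counts in these settings are therefore not read as a result about the members. The cause of the shifts between settings was not tested.

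Leaving out 1 pool at a time, where the lone pool is assumed to vary like the other group, gave medians of -0.0050 to 0.073 for scaffolds, -0.063 to 0.22 for adhesion, -0.11 to 0.11 for kinases and regulators, and 0.040 to 0.23 for other adhesion genes. Counts separate and higher ranged over 11 to 20 members (4 to 7 adhesion, 1 to 5 kinases or regulators), 4 to 11 other scaffolds, 19 to 27 other adhesion genes and 6 to 9 other kinases or regulators, and over 38 to 50 member probe sets. Counts separate and lower ranged over 9 to 17 members (5 to 7 scaffolds, 3 to 6 adhesion, 1 to 4 kinases or regulators), 6 to 9 other scaffolds, 2 to 8 other adhesion genes, 4 to 6 other kinases or regulators and 24 to 34 member probe sets. The sign turned at least once for 12 of 51 gene or probe set values: Dlg4 (-0.057 to 0.27), Homer3 (-0.14 to 0.16), Pick1 (-0.046 to 0.13), Nlgn1 (-0.076 to 0.26), Nrxn2 (-0.35 to 0.38), Nrxn3 (-0.17 to 0.0015), Slitrk1 (-0.050 to 0.32), Lrrtm2 (-0.088 to 0.16), Camk2a (-0.31 to 0.29), Camk2g (-0.083 to 0.15), Camk4 (-0.11 to 0.15) and Kalrn (-0.13 to 0.088).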
